A study of Mus musculus with 6 samples.

Results

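The genes described here are dual-specificity phosphatases, feedback inhibitors of mitogen-activated protein kinase (MAPK) signalling and related genes. Not all of them inhibit that signalling. All were followed in C2C12 mouse myoblasts with and without cyclic stretch. They were picked by symbol from the deposited expression table. The symbols taken were Dusp, Spry and Spred followed by a number alone, with Errfi1, Spsb1, Phlda1, Etv4, Etv5, Rasa1 and Lrig1 added by name. The rule found 36 of the 22375 genes and loci in the table, 23 of them dual-specificity phosphatases. Dusp13a and Dusp13b carry a letter and fell outside the rule, and Spry3 and Dusp27 were not analysed here.

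C2C12 is an immortalized mouse myoblast line that grows as single-nucleus muscle precursors. The CON group (3 libraries) was cultured without stretching. The 4H group (3 libraries) was stretched cyclically for 4 h at 15% elongation, and both groups were grown on coated elastic plates in serum-containing medium. RNA was poly(A)-selected and sequenced from strand-specific, paired-end libraries, and the labels name no agent or allele for either group other than the stretch.

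MAP kinases (ERK, JNK and p38) are switched on when an upstream kinase phosphorylates a threonine and a tyrosine in their activation loop, and the MAP kinase phosphatases remove both phosphates again. Many of these phosphatases are encoded by genes that active ERK itself switches on, so their mRNA rises after the pathway fires and the protein then limits it. Sprouty and Spred proteins, Errfi1 (also called Mig6), Lrig1 and Rasa1 act further upstream, at the receptor tyrosine kinase or at Ras, and in muscle precursors such inhibitors set how long growth factor signals last.

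Summed FPKM (fragments per kilobase of transcript, scaled to the mapped fragments of each library) ran from 395790 to 397260 in CON and from 385146 to 387516 in 4H, and 14125 to 14186 genes were above 0 in CON against 14899 to 14972 in 4H. FPKM does not hold sequencing depth, but the steps between low values put the relative depth of the libraries within 1.55% of each other. Pearson's r of log2 values, a description across genes, was 0.992 to 0.993 within the groups and 0.967 to 0.970 between them. Myoblast markers carried the label, with 6 of 7 at a mean of 0.5 FPKM or more (Pax7 was below), and they summed to 154.7 to 159.2 FPKM in CON and 228.9 to 241.4 FPKM in 4H. Most of these markers had higher means in 4H, with Itga7 at 55.9 ± 2.02 FPKM in CON and 102.2 ± 4.06 FPKM in 4H and Myod1 at 5.13 ± 0.573 FPKM and 18.2 ± 0.738 FPKM (SD, n = 3). Des, Cdh15 and Msc had higher means in 4H as well. Myf5 went the other way, from 15.8 ± 0.851 FPKM to 9.82 ± 1.13 FPKM, and Pax7 was at 0.452 ± 0.132 FPKM and 0.429 ± 0.104 FPKM (SD, n = 3). Of the 6 myotube markers 1 reached that level (sums of 0.729 to 1.11 and 1.25 to 1.81 FPKM, Actn2 at 0). Of the 6 immune markers Cd68 and Cd14 reached it, the list summing to 17.2 to 20.4 FPKM in CON and 30.9 to 35.0 FPKM in 4H, while Ptprc, the gene that defines blood cells, was at 0 in all 6 libraries. None of the 4 endothelial, 4 epithelial or 4 adipocyte markers reached it, each list summing to at most 0.707 FPKM in any library, with Emcn, Epcam, Plin1 and Lep at 0. The part of these shifts in the results was not tested, and in bulk RNA fewer cells of a type and less RNA per cell cannot be told apart.

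Of the 36 genes, 30 averaged 0.5 FPKM or more across all libraries and were tested with limma on log2(FPKM + 0.5), in a fit over all 11593 genes at that level. At an adjusted p of at most 0.05, 19 were higher in 4H, where 22.6% of all genes tested were higher, and 2 were lower, where 24.1% of all genes were lower. The other 9 did not pass. With a log2 fold change of at least 1 as well, 6 were higher, Errfi1, Phlda1, Spry4, Dusp5, Dusp6 and Spry2, against 2.61% of all genes tested, and none was lower, against 1.28%. The values of the groups did not overlap in 23 of the 30, of which 20 were higher in 4H (27.5% of all genes) and 3 lower (29.2%). The median log2 fold change was 0.44 for the 30 genes and -0.01 for all genes tested. Fold changes on this scale understate the change of genes with few FPKM.

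**Figure D1:**
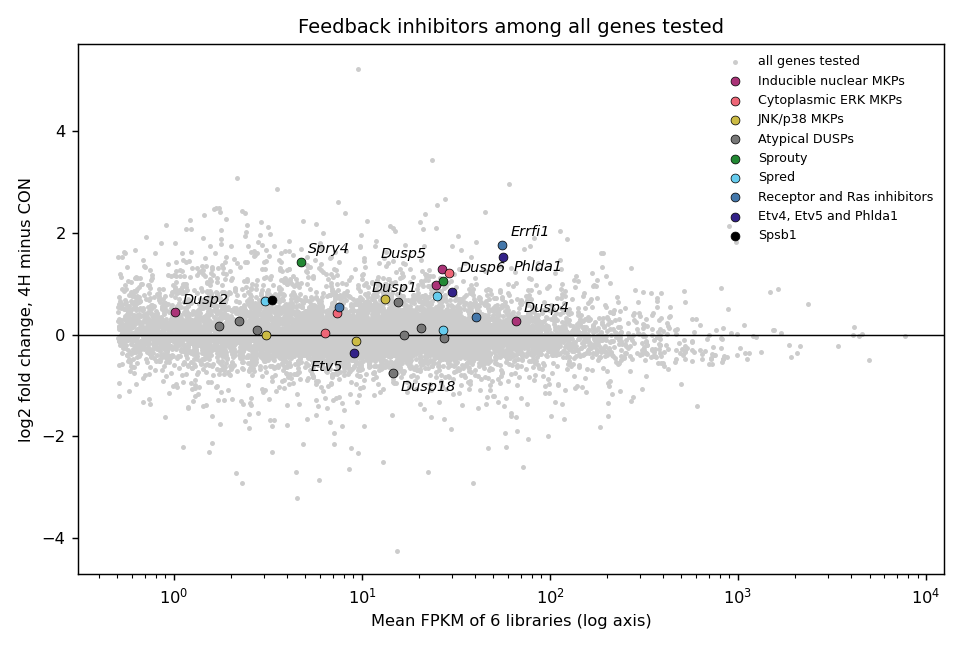
Each point is a gene tested, placed by its mean FPKM over the 6 libraries (log axis) and its log2 fold change, 4H minus CON. Grey marks all genes and colours mark the classes of the chosen genes. Errfi1 and Phlda1 stand highest among the coloured points, at 1.75 and 1.53, and Dusp18 lowest, at -0.75.

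The largest rise among these genes was that of Errfi1, a cytoplasmic adaptor that binds the kinase domain of the EGF receptor and blocks it. Errfi1 was at 25.1, 25.2 and 25.0 FPKM in CON and at 87.5, 83.9 and 85.3 FPKM in 4H. Every stretched library lay more than 3 times as high as any unstretched one, and the spread inside each group was small. For Errfi1 the log2 fold change was 1.75 (SE 0.03, adjusted p = 3.32e-08), a ratio of group means of 3.41. Errfi1 moved from rank 6 to rank 1 by FPKM among the 36 genes.

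Spry4 and Spry2 encode Sprouty proteins, which are phosphorylated after receptor activation and hold back signalling between the receptor and the MAP kinases. Spry4 was at 2.89, 2.01 and 2.18 FPKM in CON and at 6.79, 6.81 and 7.74 FPKM in 4H, a log2 fold change of 1.42 (SE 0.12, adjusted p = 4.04e-05). Spry2 was at 16.1, 17.3 and 18.7 FPKM in CON and at 36.9, 35.3 and 36.7 FPKM in 4H, a log2 fold change of 1.05 (SE 0.06, adjusted p = 3.36e-06). Both genes were higher in every stretched library than in any control, as were 27.5% of all genes tested. Spry2 was the more abundant of the pair in both groups, and its log2 fold change was 0.99, under the fold threshold, without CON replicate 1.

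Spry1, which muscle stem cells use to return to quiescence, had its lower values in 4H. Spry1 was at 0.765, 0.582 and 0.603 FPKM in CON and at 0.315, 0.293 and 0.370 FPKM in 4H, so the groups did not overlap and all 4H libraries were the lower ones. Its mean fell just short of the level required for the test. With no filter on low values the log2 fold change of Spry1 was -0.47 (SE 0.09, adjusted p = 0.00653, limma). Where leaving out a 4H library lifted its mean over the filter, the adjusted p ran from 0.0403 to 0.0690, but Spry1 entered those fits through its CON level alone, so they are no separate support. Of the 2906 exon bases of Spry1 in the GENCODE M21 annotation, 710 (24.4%) are shared with Gm42922 on the other strand, and since the strand used in counting is not stated, reads from such partners cannot be told apart here.

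Of the 3 Spred genes, whose products bring neurofibromin to the membrane to switch Ras off, 2 rose, against 22.6% of all genes tested. Spred1 was at 17.8, 19.9 and 18.0 FPKM in CON and at 32.0, 31.7 and 31.3 FPKM in 4H (log2 fold change 0.76, SE 0.05, adjusted p = 1.04e-05). Spred3, at a far lower level, had 1.80, 2.42 and 2.52 FPKM in CON and 3.71, 3.79 and 3.96 FPKM in 4H (log2 fold change 0.66, SE 0.12, adjusted p = 0.00216). Both were higher in all 3 stretched libraries, as were 27.5% of all genes tested. Spred2, the most abundant of the Spred genes in CON, had 26.1, 26.0 and 26.6 FPKM in CON and 28.4, 27.4 and 27.5 FPKM in 4H. The Spred2 groups did not overlap, but the log2 fold change of 0.08 did not pass (95% interval -0.00 to 0.17, adjusted p = 0.105), and it passed after rescaling to TPM (adjusted p = 0.0337).

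Lrig1 and Rasa1, which also act upstream, were higher in 4H, and so was Spsb1, where 22.6% of all genes tested were higher. Lrig1, a membrane protein that promotes degradation of ErbB receptors, was at 5.79, 6.47 and 6.03 FPKM in CON and at 9.09, 9.41 and 8.57 FPKM in 4H (log2 fold change 0.53, SE 0.07, adjusted p = 0.000368). Rasa1, the p120 Ras GTPase-activating protein, was at 33.9, 36.0 and 36.1 FPKM in CON and at 46.1, 44.5 and 44.4 FPKM in 4H (log2 fold change 0.34, SE 0.04, adjusted p = 0.00019). Spsb1, a SOCS-box adaptor of a ubiquitin ligase whose substrates include the type II TGF-β receptor, was at 1.98, 2.78 and 2.56 FPKM in CON and at 3.93, 3.79 and 4.83 FPKM in 4H (log2 fold change 0.68, SE 0.13, adjusted p = 0.00371). In all 3 genes the lowest 4H library lay above the highest CON library, as in 27.5% of all genes tested.

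**Figure D2:**
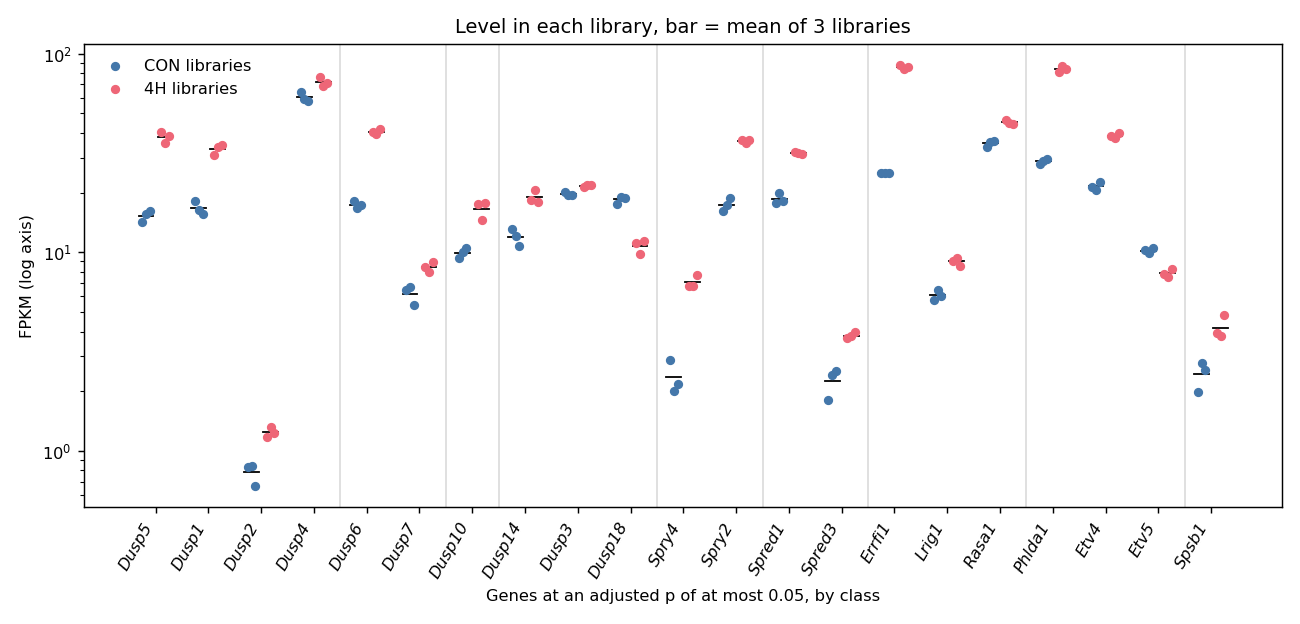
Each point is 1 library, CON (blue) or 4H (red). It gives the FPKM (log axis) of 1 of the chosen genes at an adjusted p of at most 0.05, ordered by class. A short bar marks the mean of 3 libraries. In the 19 genes that rose all red points lie above the blue ones (27.5% of all genes tested), and in Dusp18 and Etv5 all lie below (29.2%).

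All 4 inducible nuclear phosphatases were higher in 4H, as were 22.6% of all genes tested. These are short-lived enzymes encoded by immediate early genes that act on MAP kinases in the nucleus. Their median log2 fold change was 0.71, and their summed level was 93.1 ± 3.71 FPKM (SD, n = 3) in CON and 144.7 ± 4.60 FPKM (SD, n = 3) in 4H. Dusp5, which dephosphorylates ERK and holds it in the nucleus, was at 14.3, 15.5 and 16.1 FPKM in CON and at 40.1, 35.7 and 38.4 FPKM in 4H. Dusp5 had the largest change of the 4, a log2 fold change of 1.29 (SE 0.06, adjusted p = 1.57e-06). Of its 2473 exon bases, 547 (22.1%) are shared with AC137853.2 on the other strand.

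Dusp1, which acts on p38, JNK and ERK, was at 18.1, 16.3 and 15.6 FPKM in CON and at 30.8, 33.8 and 34.9 FPKM in 4H. The groups did not overlap, and the log2 fold change of 0.97 (SE 0.07, adjusted p = 1.26e-05) lay just under the fold threshold. It lay over that threshold after rescaling to TPM (1.02) and without CON replicate 1 (1.03) or 4H replicate 1 (1.02). Just inside the threshold lay Spry2, at 1.05.

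Dusp4, a nuclear phosphatase of ERK and JNK, had the highest FPKM of all 36 genes in CON. Dusp4 was at 64.0, 59.2 and 57.8 FPKM in CON and at 76.5, 68.9 and 71.4 FPKM in 4H, a log2 fold change of 0.26 (SE 0.05, adjusted p = 0.00424). The rise was small beside that of Dusp5, though all 4H libraries were above all CON libraries. Dusp2, known from activated lymphocytes, was the least abundant of the 30, at 0.835, 0.845 and 0.666 FPKM in CON and at 1.18, 1.33 and 1.23 FPKM in 4H (log2 fold change 0.45, SE 0.12, adjusted p = 0.0167). The Dusp2 groups did not overlap, and the call was lost without CON replicate 3 (adjusted p = 0.0584), without 4H replicate 2 (adjusted p = 0.0552) and under quantile normalization (adjusted p = 0.0559).

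Among the 3 cytoplasmic phosphatases that are selective for ERK, Dusp6 and Dusp7 rose, against 22.6% of all genes tested, and Dusp9 did not pass. Dusp6, whose mRNA is a widely used readout of ERK activity, was at 18.2, 16.7 and 17.3 FPKM in CON and at 40.3, 39.5 and 41.8 FPKM in 4H (log2 fold change 1.20, SE 0.05, adjusted p = 5.31e-07). Dusp7 was at 6.50, 6.67 and 5.44 FPKM in CON and at 8.49, 7.93 and 8.98 FPKM in 4H (log2 fold change 0.42, SE 0.09, adjusted p = 0.00514). Neither gene overlapped between the groups, with 4H higher, as in 27.5% of all genes tested. Dusp9 was at 6.38, 5.82 and 6.68 FPKM in CON and at 6.61, 6.33 and 6.32 FPKM in 4H, with the CON values around those of 4H. The 95% interval of its log2 fold change, -0.13 to 0.19, leaves out changes of the size seen in Dusp6 and Dusp7. Summed over the 3 genes, the level was 29.9 ± 1.03 FPKM (SD, n = 3) in CON and 55.4 ± 1.71 FPKM (SD, n = 3) in 4H.

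The 3 phosphatases that prefer JNK and p38 were mixed. Dusp10 was at 9.40, 10.0 and 10.5 FPKM in CON and at 17.6, 14.5 and 17.7 FPKM in 4H, higher in each stretched library (log2 fold change 0.70, SE 0.08, adjusted p = 0.000259). Dusp8 was at 3.14, 2.80 and 3.36 FPKM in CON and at 2.96, 3.05 and 3.13 FPKM in 4H, all inside the CON range (95% interval of the log2 fold change -0.23 to 0.19). Dusp16 was at 9.89, 9.53 and 9.61 FPKM in CON and at 9.03, 8.30 and 9.12 FPKM in 4H. The 4H values of Dusp16 were all below those of CON, by a log2 fold change of -0.13 that did not pass (95% interval -0.26 to 0.01, adjusted p = 0.108). Over all 10 phosphatases of these 3 classes, 7 rose (22.6% of all genes tested) and none fell (24.1%), with a median log2 fold change of 0.44 against -0.01 for all genes.

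**Figure D3:**
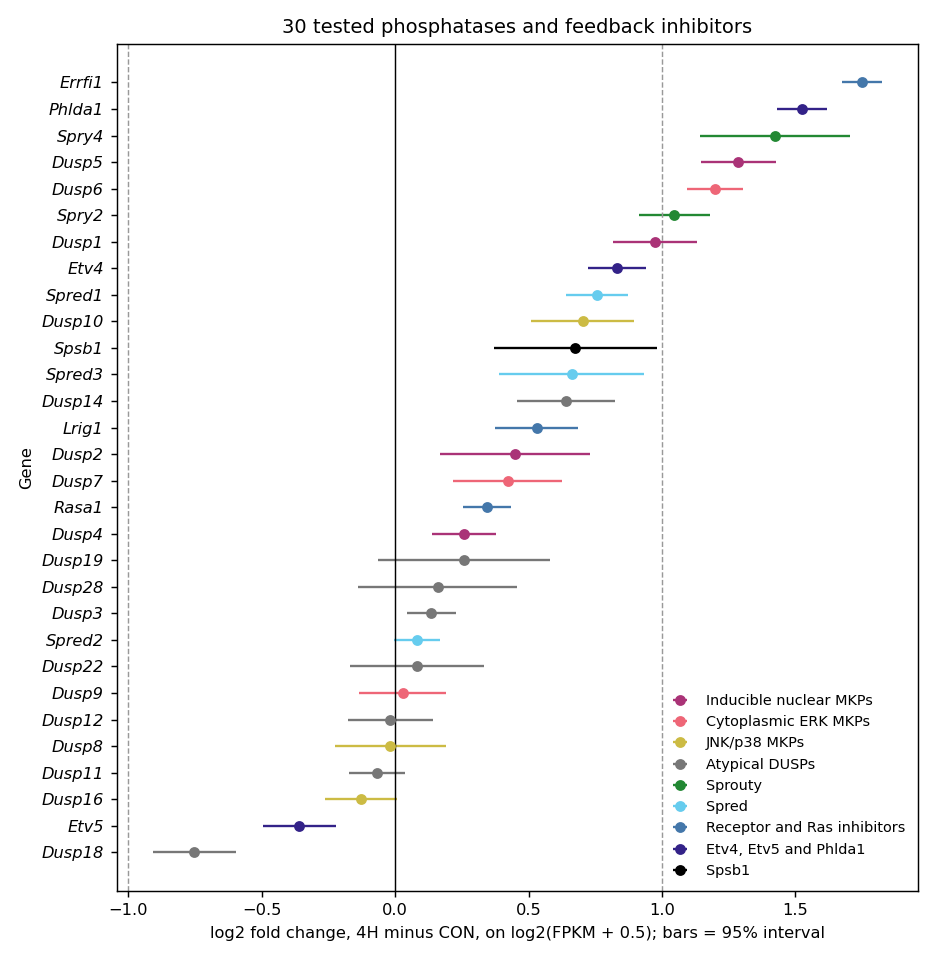
Points give the log2 fold change, 4H minus CON, of each of the 30 genes tested, sorted by size and coloured by class, bars give its 95% interval from limma, and dashed lines mark -1 and 1. All 4 inducible nuclear phosphatases lie right of 0, while the atypical phosphatases run from -0.75 (Dusp18) to 0.64 (Dusp14).

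The atypical phosphatases lack the MAP kinase-binding domain, and many act on other substrates. Of 13 such genes 8 were tested, with 2 higher, 1 lower and 5 that did not pass, near or below the shares of 22.6% and 24.1% over all genes, and their median log2 fold change was 0.11. Dusp18, a phosphatase found in mitochondria, was at 17.5, 19.1 and 18.9 FPKM in CON and at 11.2, 9.82 and 11.4 FPKM in 4H. This was the largest fall of the 30 genes, a log2 fold change of -0.75 (SE 0.07, adjusted p = 5.13e-05) with no overlap. Dusp14, an inhibitor of the kinase TAK1 and of JNK, was at 13.1, 12.1 and 10.8 FPKM in CON and at 18.4, 20.5 and 18.0 FPKM in 4H (log2 fold change 0.64, SE 0.08, adjusted p = 0.000318).

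Dusp3, a small nuclear phosphatase of ERK and JNK, rose little, from 20.2, 19.3 and 19.5 FPKM in CON to 21.4, 21.9 and 21.8 FPKM in 4H (log2 fold change 0.14, SE 0.04, adjusted p = 0.0244). The groups did not overlap, but the Dusp3 call was lost when any of 4 single libraries was left out: CON replicate 2 (adjusted p = 0.0693), CON replicate 3 (0.0697), 4H replicate 2 (0.0718) or 4H replicate 3 (0.061). With a replicate block Dusp3 did not pass either (adjusted p = 0.0601, limma). Of its 4682 exon bases, 604 (12.9%) are shared with Gm20659 on the other strand.

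The 5 atypical phosphatases that did not pass had overlapping groups. Dusp11, an RNA triphosphatase, was at 28.1 ± 0.641 FPKM in CON and 26.8 ± 1.22 FPKM in 4H (SD, n = 3; 95% interval of the log2 fold change -0.17 to 0.04). Dusp12, which has been linked to ribosome assembly, was at 16.9 ± 0.538 FPKM and 16.7 ± 1.53 FPKM (-0.18 to 0.14), and 1365 of its 2743 exon bases (49.8%) are shared with genes on the other strand. The intervals of both genes thus exclude a change as large as that of Dusp14 or Dusp18. Dusp22, which acts in the JNK pathway, was at 2.66 ± 0.308 FPKM and 2.84 ± 0.270 FPKM (-0.17 to 0.33), and Dusp28 at 1.61 ± 0.265 FPKM and 1.85 ± 0.208 FPKM (-0.14 to 0.46). Dusp19, a scaffold of the JNK pathway, was at 1.95 ± 0.149 FPKM and 2.46 ± 0.527 FPKM (-0.06 to 0.58). In Dusp19 4H replicate 2 (1.95 FPKM) lay inside the CON range and the other 4H libraries above it, and without that library the gene passed (adjusted p = 0.0464). Of the 2992 exon bases of Dusp19, 131 (4.38%) are shared on the same strand with Nup35, which was at 27.0 to 33.6 FPKM, and the part of its reads in the Dusp19 values was not tested.

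The last 5 atypical genes were too low to test. Dusp21, Dusp26 and Dusp29 were listed at 0 in all 6 libraries. Dusp15 did not exceed 0.102 FPKM in any library. Dusp23 ran from 0.0811 to 0.558 FPKM in CON and from 0.262 to 0.425 FPKM in 4H, with overlapping groups. Summed over all 13 genes, the atypical phosphatases stood at 101.7 ± 0.871 FPKM in CON and 102.5 ± 0.232 FPKM in 4H (SD, n = 3).

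**Figure D4:**
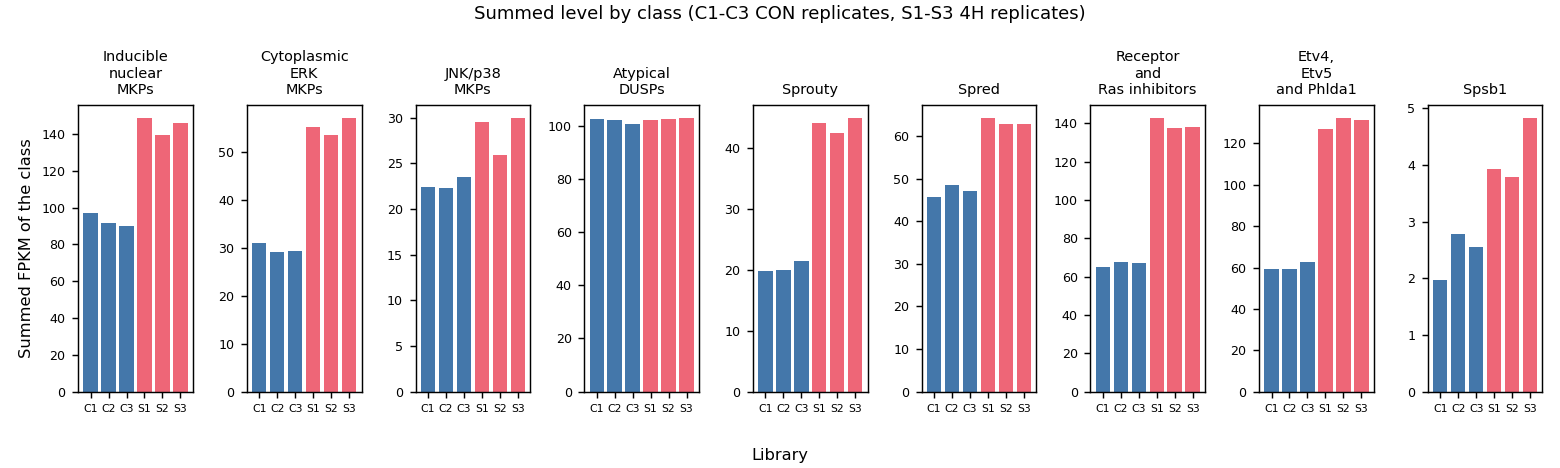
Each panel gives the summed FPKM of 1 class as 1 bar per library, CON replicates 1 to 3 in blue (C1 to C3) and 4H replicates 1 to 3 in red (S1 to S3), on an axis that starts at 0 and has its own scale. The mean of the inducible nuclear class goes from 93.1 to 144.7 FPKM and that of the cytoplasmic ERK class from 29.9 to 55.4 FPKM, while the atypical class is at 101.7 and 102.5 FPKM.

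Phlda1, Etv4 and Etv5 are not phosphatases but transcripts that ERK signalling commonly raises, and they moved in both directions. Phlda1, a pleckstrin homology-like domain protein, was at 27.8, 28.9 and 29.5 FPKM in CON and at 80.7, 87.0 and 83.1 FPKM in 4H (log2 fold change 1.53, SE 0.04, adjusted p = 1.02e-07). Etv4 was at 21.4, 20.5 and 22.6 FPKM in CON and at 38.3, 37.6 and 40.0 FPKM in 4H (log2 fold change 0.83, SE 0.05, adjusted p = 4.01e-06). Both were higher in every stretched library, as were 27.5% of all genes tested. In Phlda1 727 of 2205 exon bases (33.0%) are shared with Gm28592 on the other strand. Etv5, the close relative of Etv4 among the ETS transcription factors, was at 10.3, 9.91 and 10.5 FPKM in CON and at 7.78, 7.52 and 8.29 FPKM in 4H, so it fell without overlap (log2 fold change -0.36, SE 0.06, adjusted p = 0.00152).

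The start regions of the genes with the largest rises were read from RefSeq promoter windows (GRCm38.p6, the same build as mm10). Windows were matched by symbol for 26 of the 36 genes, with 28 starts. The upstream bases of 3 of them are shown 5′ to 3′ on the gene's strand, with the searched motifs in capitals. Dusp5 (chr19:53528895-53529108, plus strand), of whose 250 bases the 214 before the first annotated exon are printed, carries a pair of adjoining CArG boxes, the element bound by serum response factor, and the short CRE core, TGACG, read on the other strand. The second start of Errfi1 (chr4:150854820-150855069, plus strand) lies inside the annotated gene, in an intron of its longer transcript, and holds a full CRE, TGACGTCA, and a TATA box, TATAAA. Dusp6 (chr10:99262981-99263230, plus strand) held none of the motifs searched.
Dusp5 upstream: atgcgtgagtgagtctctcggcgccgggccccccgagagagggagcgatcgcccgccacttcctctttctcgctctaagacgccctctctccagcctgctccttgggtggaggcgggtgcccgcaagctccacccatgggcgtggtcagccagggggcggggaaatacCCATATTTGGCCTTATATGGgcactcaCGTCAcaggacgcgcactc
Errfi1 second start upstream: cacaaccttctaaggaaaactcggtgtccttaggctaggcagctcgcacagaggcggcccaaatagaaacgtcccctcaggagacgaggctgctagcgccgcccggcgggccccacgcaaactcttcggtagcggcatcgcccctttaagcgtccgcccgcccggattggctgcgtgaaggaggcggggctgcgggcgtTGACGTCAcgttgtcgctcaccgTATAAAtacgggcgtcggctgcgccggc
Dusp6 upstream: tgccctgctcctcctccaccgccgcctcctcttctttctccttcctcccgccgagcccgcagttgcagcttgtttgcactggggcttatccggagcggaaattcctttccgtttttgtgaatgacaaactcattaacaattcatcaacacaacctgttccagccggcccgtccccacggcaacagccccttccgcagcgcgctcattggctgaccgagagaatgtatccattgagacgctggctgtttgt

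Counted over the 250 bases upstream of each start and on both strands (TATAAA on the gene's strand alone), the CArG box was in 1 of the 28 windows, that of Dusp5, and in 1.47% of all 32851 promoter windows. In Dusp5 the boxes lie at -82 to -73 and at -72 to -63 from the RefSeq start, which lies beyond the printed bases. TGACGTCA was in 3 of the 28, Dusp1, Dusp8 and the second start of Errfi1, and in 1.55% of all. Dusp1 and Errfi1 were among the genes that rose, whereas Dusp8 had a log2 fold change of -0.02. The short core TGACG, which is also part of TGACGTCA, was in 8 of 28 and in 17.8% of all, the AP-1 element TGANTCA in 0 of 28 and 6.75%, the ETS element CCGGAA in 2 and 12.0%, the TEAD element GGAATG in 2 and 12.6%, and TATAAA in 1 and 7.59%. These are matches of letters, with no measure of binding.

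In the annotation the 6 genes past both thresholds had a median of 2.5 exons and a span of 9098 bases, where the 11377 protein-coding genes tested had medians of 9 exons and 24076 bases, and the 295 of them that rose past both thresholds had medians of 6 exons and 18955 bases. The 30 genes tested had medians of 4 exons and 15474 bases. The AU-rich element TATTTAT, a mark of short-lived mRNAs, was in the 3′ UTR of 15 of the 30 (50%) and of 4 of the 6 (66.7%), Errfi1, Phlda1, Spry4 and Spry2, where 28.1% of the 11165 coding genes tested with an annotated 3′ UTR had it, and 36.2% of the 287 such genes that rose past both thresholds. Of the 11 members that fell or did not pass, 5 (45.5%) had it. Among the phosphatases it was near the share over all genes, in 3 of the 10 MAP kinase phosphatases (30%) and 2 of the 8 atypical ones (25%). TATTTAT was also in Dusp1, which had 3 copies, and in Dusp18, which fell and also had 3. The median 3′ UTR was 1273.5 bases long in the 30 and 977 in the coding genes tested. The part of length in these shares was not tested. The counts are descriptions of the gene models and were not tested.

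To see whether other levels of the same cascade moved, 111 further genes were followed from receptors to ERK output, of which 99 were tested. Of these 37 were higher (22.6% of all genes tested), 15 lower (24.1%) and 47 did not pass, with a median log2 fold change of 0.10, and 7 were higher by both thresholds (2.61%). The counts of the single lists that follow are read against these same shares, and where they lie near them they are not results about the list. Without CON replicate 3 the number lower was 9. The core kinase Mapk3 (ERK1) was at 52.2 ± 2.34 FPKM in CON and 51.7 ± 2.63 FPKM in 4H (SD, n = 3). It did not pass, and its 95% interval ran from -0.13 to 0.10 on the log2 scale. The ERK kinases Map2k1 (log2 fold change 0.06, 95% interval -0.03 to 0.16) and Map2k2 (-0.05, 95% interval -0.16 to 0.05) did not pass either. Of the 11 RAF, MEK and ERK genes tested 1 rose, Pea15a, which keeps ERK in the cytoplasm (log2 fold change 0.25), and 2 fell.

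At the receptors 4 of 10 genes tested rose (22.6% of all genes) and 2 fell (24.1%). Egfr, the receptor that Errfi1 blocks, was at 2.19, 2.62 and 3.30 FPKM in CON and at 6.66, 5.60 and 6.48 FPKM in 4H (log2 fold change 1.09, SE 0.13, adjusted p = 0.000304). The 4H libraries were all above CON. Pdgfrb, the PDGF receptor beta, fell (log2 fold change -0.26). Of 12 adaptors 4 rose and 2 fell, with the ubiquitin ligase Cbl at 0.31 and the Ras exchange factor Sos1 at -0.19. Of 8 Ras genes 3 rose and 1 fell, Rras2 by 0.38 and Mras by -0.21 on the log2 scale.

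Of 18 further brakes on receptors and Ras outside the chosen 36, 7 were higher (22.6% of all genes tested) and 3 lower (24.1% of all genes). Rasa4, a calcium-regulated Ras GTPase-activating protein, was at 13.6, 14.3 and 13.4 FPKM in CON and at 29.5, 28.0 and 27.1 FPKM in 4H (log2 fold change 1.01, SE 0.05, adjusted p = 1.84e-06). It was higher in each stretched library.

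In the JNK branch 2 of 8 genes rose and 1 fell, near or below the shares of 22.6% and 24.1% over all genes, with the JNK kinases Map2k4 at 0.46 and Map2k7 at -0.13. In the p38 branch 3 of 7 rose and 1 fell, with the p38 kinase Map2k3 at 58.1 ± 1.81 FPKM in CON and 95.6 ± 4.55 FPKM in 4H (SD, n = 3, log2 fold change 0.71, adjusted p = 5.47e-06) and Mapk12, the muscle form of p38, at -0.21. Of the 4 genes of the ERK5 branch Map3k2 rose (0.43) and Map2k5 fell (-0.29). Of 9 kinases that MAP kinases activate 2 rose, Rps6ka4 the more (0.46), and 1 fell, Mknk1 (-0.41), counts again near or below the shares over all genes. The calls of Sos1, Mras, Map2k5 and Map2k7 were each lost when 1 library of several was left out, with adjusted p up to 0.0726, 0.101, 0.0925 and 0.126. That of Map2k7 was lost with any of the 6 left out, with a replicate block, without a trend and after rescaling to TPM. Sos1 and Map2k5 were also lost with the block, Sos1 and Mras after rescaling to TPM, and Map2k5 with no filter.

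Of 12 genes that ERK signalling raises in many cells, 10 were higher in 4H (22.6% of all genes tested), 5 of them, Fos included, by both thresholds (2.61%), with a median log2 fold change of 0.69. Hbegf, a ligand of the EGF receptor, was at 10.1, 8.87 and 9.62 FPKM in CON and at 34.3, 31.5 and 33.6 FPKM in 4H (log2 fold change 1.75, SE 0.06, adjusted p = 3.08e-07). Fos was low throughout, at 0.194, 0.127 and 0.233 FPKM in CON and at 1.18, 1.09 and 1.39 FPKM in 4H. The groups did not overlap in either gene. Fos reached the level for testing through the 4H libraries alone. Its log2 fold change of 1.33 ran from 0.90 with a pseudocount of 1 to 2.22 with a pseudocount of 0.1. Fos is therefore given as a description, and its place in these counts and in those over all pathway lists is no support for them. The log2 fold change was 0.75 for Egr1, 0.57 for Fosl1 and 0.52 for Ccnd1, the gene of cyclin D1. Myc, a growth regulator, went down, from 68.8 ± 1.77 FPKM to 49.2 ± 1.46 FPKM (SD, n = 3, log2 fold change -0.48, adjusted p = 2.03e-05), and Mcl1 did not pass (95% interval -0.04 to 0.13).

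**Figure D5:**
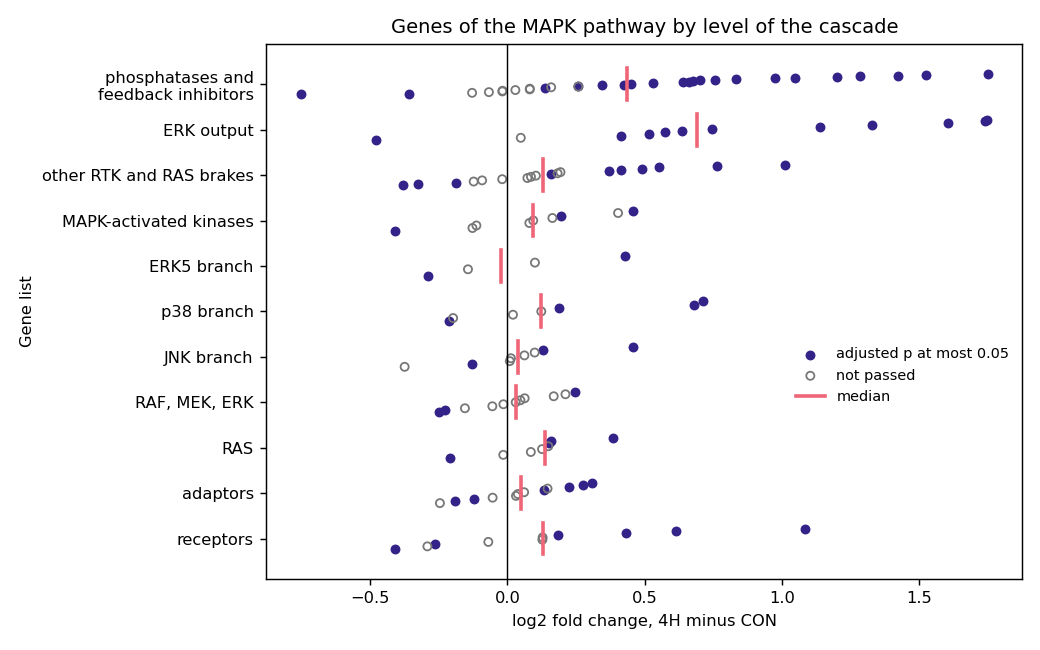
Each row is a list of genes of the MAPK pathway, from receptors to ERK output, with the chosen phosphatases and feedback inhibitors on top. Each point is the log2 fold change, 4H minus CON, of 1 gene tested, filled where the adjusted p was at most 0.05. A bar marks the median. The medians of the chosen genes (0.44) and of ERK output (0.69) lie right of those of the other lists, which run from -0.02 to 0.14.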

How the data were processed

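The authors deposited 1 table of FPKM values with 1 column per library, normalized for transcript length and library size. Per the submitters' processing notes the genome build was mm10, and the sources used here name no aligner, counting tool, strand setting or annotation. Libraries were grouped by the treatment in the labels, and 4H replicates 1, 2 and 3 are the libraries titled 4H1, 4H3 and 4H4. The labels do not say whether replicates were separate cultures, so p-values measure only the spread between these 6 libraries. Since FPKM is not a count, limma 3.58.1 in R 4.3.3 (lmFit, eBayes with a trend, two-sided) was run on log2(FPKM + 0.5) for the 11593 genes that averaged 0.5 FPKM or more, with Benjamini-Hochberg adjustment over all of them. It stands in for the count test of the study, with its thresholds of an adjusted p of 0.05 and a log2 fold change of 1. The fit was checked on simulated data with changes larger than those of most members, so the check does not speak for small changes. No 2 columns were identical. For a single gene, an exact permutation test of 3 against 3 libraries cannot go below a two-sided p of 0.1.

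The members, their classes and the pathway and marker lists were chosen with earlier results of these data known. Named were members at a mean of at least 2 FPKM or past the adjusted p, the largest rise and fall of each pathway list at that mean, Mapk3, Map2k1, Map2k2, Fos, Fosl1, Egr1 and Ccnd1. Spry1 and the members at lower levels, the marker genes and Mcl1 fall outside it, and their naming came after their values were known. A few genes that the rule takes are not reported here. Gene spans, exons, 3′ UTRs and shared exon bases came from GENCODE M21, and promoter windows of 250 bases from RefSeq. FPKM holds no depth, so counting error is not given. Alternatives were pseudocounts of 0.1 and 1, other filters, a replicate block, no trend, TPM, median-of-ratios and quantile scaling, the ratio of group means for the fold threshold, and each library left out. Summaries used pandas 2.3.3 and numpy 2.4.6 under Python 3.11.15, and plots matplotlib 3.10.9.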

Additional observations from a re-analysis of the deposited data

How the results depend on the processing

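The number of members higher in 4H at an adjusted p of at most 0.05 was 17 to 19 with 1 library left out, 20 after rescaling to TPM and 15 of the 22 tested at a filter of 5 FPKM, against 19 as reported. Over the alternatives run, the number lower was 2 to 3, and by both thresholds 5 (at that filter) to 7 were higher and none lower. Their median log2 fold change, 0.44 as reported, was 0.50 with a pseudocount of 0.1, 0.37 with a pseudocount of 1, 0.34 with no filter and 0.48 among genes over 5 FPKM, and 0.37 to 0.48 with 1 library left out. A larger pseudocount shrinks log2 fold changes and the filters change which genes are tested, so both kinds of shift follow by construction. For the rest the cause was not tested. Of the other pathway genes 34 to 38 were higher and 9 to 12 lower with 1 library left out, against 37 and 15, the lowest without CON replicate 3. Over the 30 members and up to 16 alternatives each, 455 values kept their direction and side of the threshold, 8 lost and 2 gained the threshold, and 7 changed sign. The 7 were of genes that did not pass in either fit: Dusp22 under quantile normalization (-0.0012), Dusp12 (0.0178) and Dusp8 (0.0143) after rescaling to TPM, and, with 1 library left out, Dusp9 (-0.0225 to 0.0703), Dusp12 (-0.0559 to 0.0586) and Dusp8 (-0.0798 to 0.0332). Among all genes, those higher by both thresholds numbered 152 with a filter at 5 FPKM and 532 after rescaling to TPM, against 302, and those lower 93 at that filter, against 148. The filter and pseudocount stayed at 0.5 after rescaling to TPM, which made both smaller in FPKM, and 12457 genes were tested there against 11593. A pseudocount of 0.1 alone gave 413 higher. Replicate numbers did not pair the libraries (correlations of same-numbered libraries of 0.02, -0.09 and -0.13). With a replicate block 18 members were higher, 2 lower and 6 higher by both thresholds, the median was 0.44, Dusp3 no longer passed (adjusted p = 0.0601), 35 and 10 pathway genes were higher and lower, and the calls over all genes went from 5409 to 4964. The part of counting noise in members with few FPKM, such as Dusp2 and Dusp28, cannot be read from FPKM and was not tested.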
